A study of Mus musculus with 6 samples.

Results

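Cultured mouse cardiac fibroblasts were compared with cultured mouse lung fibroblasts across all genes with enough reads. The comparison was defined by the labels: both cardiac libraries against both lung libraries, 4 of the 6 libraries of the series, with the virus as a covariate. Members are the genes that passed a filter on low counts, 18143 of the 57180 gene identifiers in the count table. The series also holds fibroblasts from the tip of the tail, and cells of each origin received a control adenovirus with green fluorescent protein (Ad-GFP) or one with Cre recombinase (Ad-Cre, labelled as the knockout of Gata4). The groups compared were therefore lung and cardiac cells with either virus, with 1 library each, all given as wild type, all grown in DMEM with 10% serum and all collected 48 h after infection. The labels do not give the strain, sex or age of the mice, the passage of the cells, how they were purified, or whether several animals were pooled. No untreated cells were among them, so every group carries an adenovirus.

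Fibroblasts make and remodel the collagen-rich matrix of an organ, and they send growth factors, chemokines and Wnt or BMP signals to the epithelium, endothelium and muscle beside them. They keep a record of where in the body they came from as a code of Hox, T-box and other developmental transcription factors, which persists in culture. Cardiac fibroblasts descend mostly from the epicardium, whose factors include Tcf21, Tbx18 and Wt1. Lung fibroblasts arise from a mesenchyme in which Foxf1, Tbx4 and Tbx5 act and which feeds the growing airways with Fgf10.

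The labels tie these count columns to a table whose title names another subject, so that the columns belong to these samples rests on their names. The 4 libraries held between 26170316 and 33779069 counts, and between 22665 and 27267 genes had a read. All 14 general fibroblast markers were tested and none was without reads in the lung libraries. Of the 12 lung fibroblast markers, Tcf21 and Inmt had 0 reads in both lung libraries and Limch1 had 0 and 1 read. Foxf1 stood there at 19.5 and 17.5 CPM (reads of the gene per megaread of the TMM-scaled library total) and Tbx4 at 2.61 and 2.22 CPM. Of the 11 tested, 4 were called higher in lung and 4 higher in cardiac, and Tbx4 was not called. The list, with Macf1 as its largest part, summed to 792 and 703 CPM in the lung libraries. In the cardiac libraries it summed to 1170 and 1012 CPM. Cardiac fibroblast markers summed to 1036 and 707 CPM in the cardiac libraries and to 45.6 and 53.7 CPM in the lung libraries. Other cell types were not equal between the origins. The 17 macrophage and leukocyte markers summed to 1104 and 667 CPM in the cardiac libraries (control first) and to 31.3 and 22.3 CPM in the lung libraries, with 13 of 16 tested members called higher in cardiac, and their sum in the tail tip libraries was 5578 and 4734 CPM. Epithelial markers summed to 15.3 and 162 CPM in the cardiac and 2.23 and 9.01 CPM in the lung libraries, so the cardiac Ad-Cre library stood above the other 3. Lung epithelial markers summed to at most 1.87 CPM in any library and endothelial markers to 8.17 and 10.7 CPM in the lung and 22.2 and 25.4 CPM in the cardiac libraries. In bulk RNA, fewer cells of a type and less RNA per cell cannot be told apart.

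Of the 18143 genes, 6967 differed between the origins at an adjusted p under 0.05 in edgeR's quasi-likelihood test with Benjamini-Hochberg adjustment, which is 38.4% of those tested. Higher in cardiac fibroblasts stood 3774 genes (20.8%) and higher in lung fibroblasts 3193 (17.6%), and the median log2 fold change over all tested genes was -0.01 (here and throughout, cardiac minus lung). The cardiac side held most of the large differences. At least 16-fold differences were called for 964 genes higher in cardiac and 370 higher in lung, while at least 2-fold differences were called for 2788 and 1798. Among all tested genes, 76 had at least 5 CPM in both cardiac libraries and no more than 3 reads over both lung libraries, against 12 genes the other way round. Of those 76, 7 belong to the list of 17 macrophage and leukocyte markers. That list does not hold every leukocyte gene, and the part of macrophage RNA in the 76 was not tested. Without the cardiac Ad-GFP library the count of genes higher in lung rose to 4978.

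The 2 libraries of an origin carry different viruses, so they are not replicates in the strict sense. The spread in the test is what remains after an additive effect of origin and of virus, with 2 residual degrees of freedom. Of the 6967 called genes, 3832 (55.0%) differed at least 2-fold in the same direction with both viruses, and 1230 had log2 ratios that differed by 1 or more between the viruses. Over all tested genes, 70.3% had CPM values that did not overlap between the 2 cardiac and the 2 lung libraries (35.1% higher in cardiac, 35.2% higher in lung), so a lack of overlap alone sets no gene apart. No called gene had reads and opposite directions with the 2 viruses. Aqp3, a water and glycerol channel gene, was called from 515 reads in the cardiac Ad-Cre and 9 in the lung Ad-Cre library, with 0 reads in both Ad-GFP libraries.

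**Figure D1:**
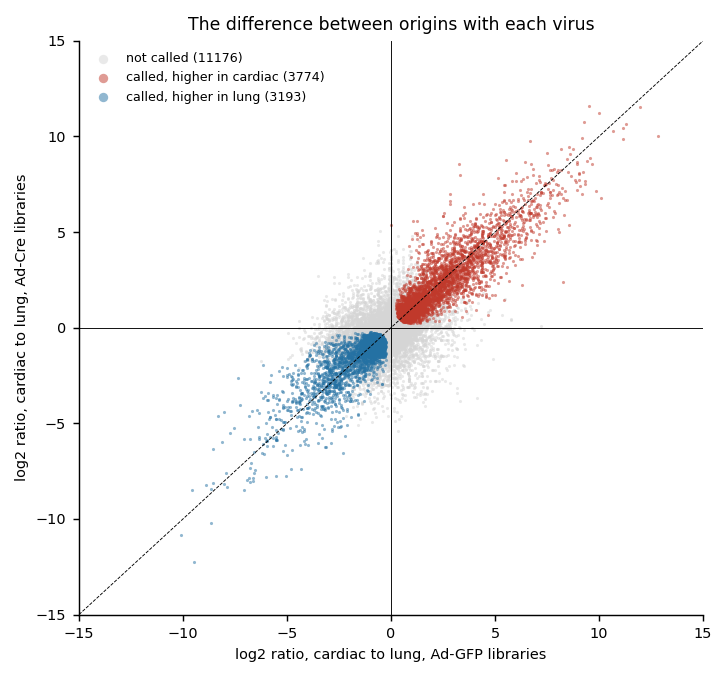
Each point is a tested gene, placed by its log2 ratio of cardiac to lung CPM with Ad-GFP (horizontal axis) and with Ad-Cre (vertical axis). The 3774 genes called higher in cardiac (red) lie in the upper right and the 3193 called higher in lung (blue) in the lower left, while the 11176 genes not called (grey) spread around the centre.

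The question behind this comparison is how far 2 connective tissue cell types differ outside a few markers. Genes were grouped into 54 lists in 4 classes: surface, secreted, metabolic and regulatory. Surface genes leaned to the cardiac side, with 368 of 931 tested members higher there (39.5%) and 131 higher in lung (14.1%), and a median log2 fold change of 0.65. Secreted genes leaned the same way, with 233 of 569 higher in cardiac (40.9%), 100 higher in lung (17.6%) and a median of 0.84. Metabolic genes were nearer to the background, with 222 of 748 higher in cardiac (29.7%) and 150 higher in lung (20.1%). Regulatory genes were the only one of the 4 classes with more members higher in lung, 206 of 657 (31.4%) against 167 (25.4%). These shares stand beside 20.8% and 17.6% over all tested genes and were not tested as sets.

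**Figure D2:**
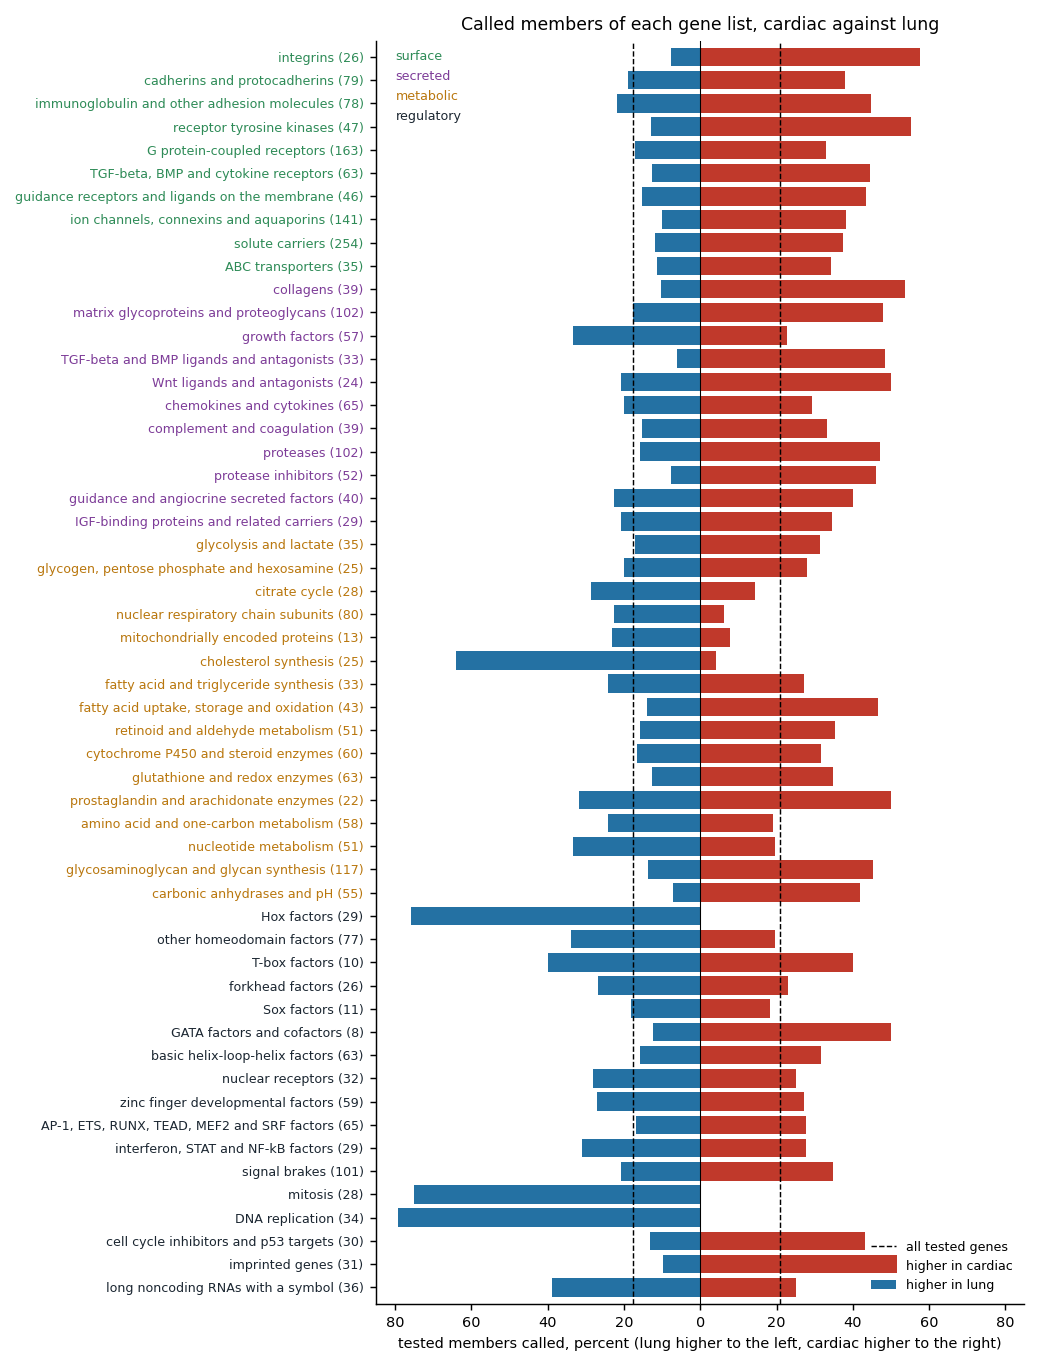
Bars give the percent of tested members of each list (number in brackets) called higher in cardiac (red, to the right) or higher in lung (blue, to the left), and dashed lines mark 20.8% and 17.6% over all tested genes. Most surface and secreted lists pass the dashed line on the cardiac side, while Hox factors, mitosis, DNA replication and cholesterol synthesis reach furthest to the lung side.

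The largest differences were near on-off patterns of a receptor, a ligand or an enzyme. Gdf6, a BMP family growth factor of joints and skeleton, had 0 reads in both lung libraries and stood at 108 and 82.7 CPM in the cardiac libraries, at least 1748-fold higher over both libraries of an origin with 3 reads as the floor of an origin at 0. Ror1, a receptor of the Wnt5a signal, had 0 reads in lung and 32.6 and 26 CPM in cardiac fibroblasts, at least 537-fold higher. Both genes were read in every cardiac library and in no lung library. The soluble guanylate cyclase that answers nitric oxide was present on the cardiac side with both subunits: Gucy1a1 had 0 reads in lung and 25.0 and 35.0 CPM in cardiac cells (at least 545-fold), and Gucy1b1 had 0 and 1 read in lung and 147 and 98.6 CPM in cardiac cells (ratio 6757, exact 95% interval 1212 to 266902). Neither subunit overlapped between the origins, but both were chosen for large differences, and 35.1% of all tested genes were higher in cardiac without overlap. Myo18b, a myosin of the sarcomere, had 0 reads in lung and 813 and 1402 in the cardiac libraries, and Fxyd6, a regulator of the sodium pump, had 0 and 1 against 5302 and 5052 reads.

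On the lung side the 10 genes furthest apart included Hoxc6, Hoxb7 and Hoxb9, described with the Hox factors, and the genes of a steroid enzyme, an orphan receptor, a peptide hormone and the receptor of interleukin 33. Hsd3b6, a steroid dehydrogenase, stood at 137 and 121 CPM in the lung libraries and had 2 and 0 reads in the cardiac libraries (ratio 4099, exact 95% interval 1134 to 33853). Gpr149, an orphan G protein-coupled receptor, stood at 463 and 321 CPM against 0.584 and 0 CPM (log2 fold change -10.35, SE 0.69, adjusted p = 7.1e-05). Cck, the cholecystokinin gene, stood at 213 and 194 CPM in lung and 0.461 and 0.0982 CPM in cardiac cells (-9.52, SE 0.39, adjusted p = 1.3e-05). These 3 genes were high in both lung libraries and close to 0 in both cardiac ones. Il1rl1, the receptor of interleukin 33, was at 1403 and 852 CPM in lung and 1.75 and 2.29 CPM in cardiac fibroblasts (-9.11, SE 0.37, adjusted p = 1.3e-05). Il33 itself, an alarm cytokine held in the nucleus, was at 274 and 122 CPM in lung and 1.05 and 0.557 CPM in cardiac cells (-7.90, SE 0.29, adjusted p = 1.2e-05), so ligand and receptor were both lung-high.

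**Figure D3:**
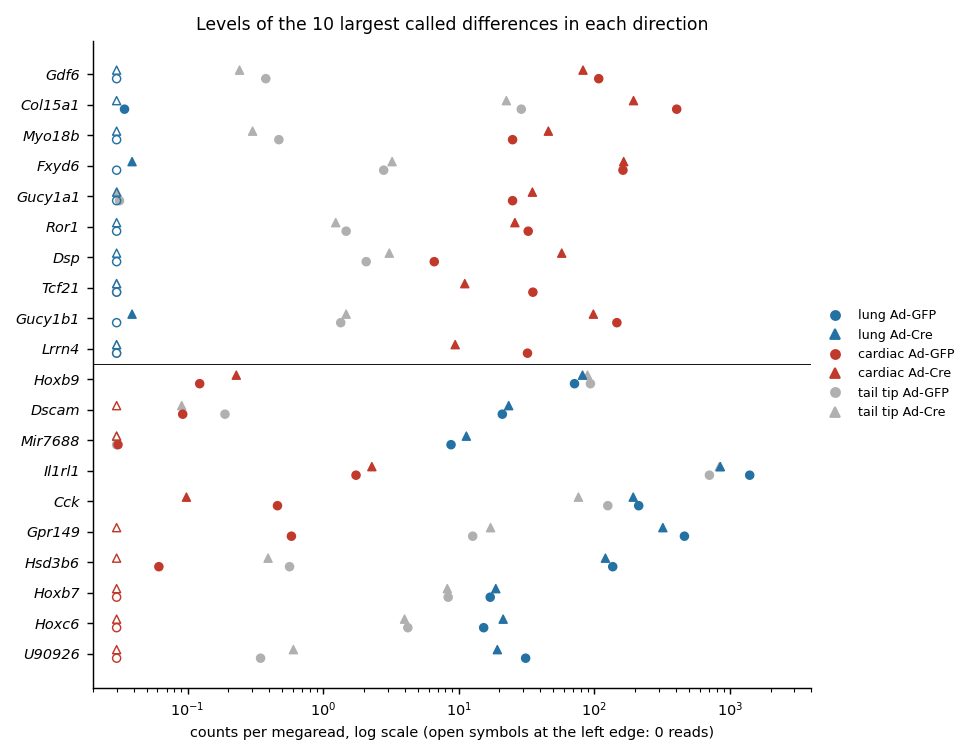
CPM on a log axis in all 6 libraries (circles Ad-GFP, triangles Ad-Cre) of the 10 called genes furthest apart on each side, with at least 10 CPM in the higher origin, cardiac-high above the line and lung-high below it. Open symbols at the left edge have 0 reads. Cardiac (red) and lung (blue) points do not overlap for any of the 20 genes, which were chosen for their large differences. Over all tested genes, 70.3% do not overlap either. Tail tip points (grey) fall on either side.

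More cell adhesion genes were called higher in cardiac than in lung fibroblasts. Of 26 integrin chains tested, 15 were higher in cardiac, 2 were higher in lung and the median log2 fold change was 1.51. Itga9, which pairs with beta 1 to bind tenascin and VCAM1, stood at 0.481 and 0.624 CPM in lung and 71.0 and 53.8 CPM in cardiac cells (log2 fold change 6.81, SE 0.27, adjusted p = 1.3e-05). Itga4, a chain that binds VCAM1 and fibronectin, stood at 0.549 and 0.780 against 72.1 and 50.5 CPM (6.51, SE 0.29, adjusted p = 1.6e-05). Neither overlapped between the origins, as for 35.1% of all tested genes in this direction. Itgam and Itgal, the chains of leukocyte integrins, were also higher in cardiac, at 15.5 and 8.58 CPM and 13.6 and 9.53 CPM. Those 2 were at 50.4 and 85.8 CPM in the tail tip control, where the macrophage marker sum was larger too. Itgam is itself a member of that sum, and the part of macrophage RNA in the difference of these 2 chains was not tested. Itga2, a collagen-binding chain named after its values were seen, went the other way with 18 and 14.5 CPM in lung and 1.84 and 0.95 CPM in cardiac cells. Leaving out the lung Ad-Cre library changed the 2 integrins higher in lung to 1.

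Cadherins and protocadherins were split, with 30 of 79 higher in cardiac and 15 higher in lung (23 without the cardiac Ad-GFP library). Cdh13, a cadherin anchored to the membrane by a lipid, had 0 and 2 reads in lung and 39.7 and 40.5 CPM in cardiac fibroblasts (ratio 1097, exact 95% interval 303 to 9065). Pcdh17 was lung-high, at 51.1 and 47.2 CPM against 1.23 and 1.15 CPM (log2 fold change -5.37, SE 0.23, adjusted p = 1.5e-05). The desmosome gene Dsp had 0 reads in lung, 6.61 CPM in cardiac Ad-GFP and 57.6 CPM in cardiac Ad-Cre cells, and Dsc2, a desmosomal cadherin, was at 5.04 and 7.63 CPM in cardiac cells. Dsp is itself a member of the epithelial marker list, which summed to 15.3 CPM in cardiac Ad-GFP and 162 CPM in cardiac Ad-Cre cells. That sum is therefore no separate measure, and the part of epithelial RNA in the Dsp value was not tested. Among other adhesion molecules 35 of 78 were higher in cardiac and 17 in lung. Eng, a coreceptor for TGF-beta and BMP9, was at 1.54 and 1.79 CPM in lung and 360 and 396 CPM in cardiac fibroblasts (7.82, SE 0.20, adjusted p = 7.0e-06). The mesothelial surface genes Upk3b and Lrrn4 had 0 reads in lung and stood in the cardiac libraries at 2.92 and 28.7 CPM and at 32.2 and 9.43 CPM. Msln, the mesothelin gene, went the other way at 153 and 193 CPM in lung and 6.42 and 27.6 CPM in cardiac cells (-3.65, SE 0.40, adjusted p = 6.3e-04). The mesothelial marker list summed to 156 and 197 CPM in lung and 63.6 and 138 CPM in cardiac cells. Msln made up most of the lung sums, and of the 8 members tested 6 were called higher in cardiac and 1 in lung. Dscam, a neuronal adhesion molecule, was lung-high with 613 and 600 reads against 3 and 0.

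Growth factor receptors formed a further group on the cardiac side. Of 47 receptor tyrosine kinases, 26 were higher in cardiac and 6 in lung, with a median log2 fold change of 1.23, or 1.06 with genes at 0 reads in an origin set to their bound. Flt1, a receptor and decoy for VEGF, was at 4.12 and 4.33 CPM in lung and 235 and 231 CPM in cardiac cells (5.79, SE 0.18, adjusted p = 7.6e-06). Epha4, a receptor of ephrins, was at 0.137 and 0.156 against 12.1 and 14.7 CPM, and Ret, the receptor of GDNF, at 0.0687 and 0.312 against 6.61 and 11 CPM. Each of these 3 receptors was well above its lung level in both cardiac libraries. The PDGF receptors that mark fibroblasts differed less: Pdgfra was at 138 and 146 CPM in lung and 268 and 408 CPM in cardiac cells (1.23, SE 0.17, adjusted p = 0.00184), and Pdgfrb at 82.2 and 93.6 against 263 and 416 CPM (1.93, SE 0.19, adjusted p = 3.6e-04). Met, the receptor of HGF, was among the 6 higher in lung, at 203 and 160 CPM against 48.2 and 55.8 CPM; it was picked after its values were seen, because its ligand is described among the secreted genes.

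Receptors for TGF-beta family ligands and cytokines numbered 63, of which 28 were higher in cardiac and 8 in lung. The lung count fell to 4 without either lung library. Csf2ra and Csf2rb, the chains of the GM-CSF receptor, were at 16.8 and 9.20 CPM and at 12.3 and 13.8 CPM in cardiac cells and under 0.2 CPM in lung cells, and at 102 and 54.4 CPM in the tail tip control. Notch receptors were counted with the guidance molecules (20 of 46 higher in cardiac, 7 in lung). The 3 named here were taken for their large differences and were cardiac-high, and the rest of the family is not described. Notch1 was at 0.789 and 1.21 CPM in lung and 66.5 and 86.3 CPM in cardiac cells (6.26, SE 0.24, adjusted p = 1.2e-05), and Notch3, a pericyte and smooth muscle receptor, at 0.995 and 1.21 against 65.4 and 58.1 CPM (5.81, SE 0.22, adjusted p = 1.2e-05). Notch4 was at 7.01 and 11.6 CPM in cardiac cells and under 0.4 CPM in lung cells. No lung value reached a cardiac one for these 3 receptors, which was so for 35.1% of all tested genes. Without the cardiac Ad-GFP or the cardiac Ad-Cre library the 7 guidance genes higher in lung became 12 and 11.

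Of 163 G protein-coupled receptors tested, 54 were higher in cardiac and 28 in lung, a median log2 fold change of 0.82. Besides Gpr149 on the lung side, the largest were on the cardiac side and included receptors of leukocytes. Adgre1, which encodes the macrophage antigen F4/80, was at 31.6 and 23.9 CPM in cardiac, 3 and 0 reads in lung and 426 CPM in tail tip control cells. Cxcr4, the receptor of Cxcl12, had 0 reads in lung and 246 and 146 in cardiac cells, at least 113-fold higher. The part of macrophage RNA in these receptors was not tested.

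More ion channels and transporters were called higher in cardiac than in lung as well. Among 141 ion channel, connexin and aquaporin genes, 54 were higher in cardiac and 14 in lung, and among 254 solute carriers 95 and 30. Ano3, a scramblase of the anoctamin family, had 0 reads in lung and 13.8 and 19.6 CPM in cardiac cells (at least 303-fold). Kcnj15, an inward rectifier potassium channel, had 0 and 1 read against 34 and 27.4 CPM (ratio 1687, exact 95% interval 302 to 66657). Slco2a1, the prostaglandin transporter, was at 3.43 and 5.96 CPM in lung and 343 and 424 CPM in cardiac fibroblasts (6.39, SE 0.21, adjusted p = 7.8e-06). Each of them was separate between the origins, as were 35.1% of all tested genes in this direction. The glutamate carrier Slc1a6 was at 0.137 and 0.117 against 45.2 and 26.3 CPM (8.07, SE 0.43, adjusted p = 3.1e-05). Slc14a1, a urea transporter, was lung-high at 40.7 and 29.5 CPM against 0.123 and 0.589 CPM (-6.65, SE 0.54, adjusted p = 1.6e-04), as was the potassium channel Kcnk10 at 13.2 and 9.51 against 0.676 and 0.164 CPM. Among ABC transporters 12 of 35 were higher in cardiac and 4 in lung, and Abca1, which exports cholesterol from cells, was at 7.59 and 7.37 against 28.8 and 60.0 CPM (2.50, SE 0.28, adjusted p = 7.0e-04). These counts moved with single libraries: channels higher in lung became 26 without cardiac Ad-Cre, solute carriers higher in cardiac 61 without lung Ad-Cre, solute carriers higher in lung 52 without cardiac Ad-GFP, and ABC transporters higher in lung 2 without lung Ad-GFP and 7 without cardiac Ad-Cre.

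More matrix genes were called higher in cardiac than in lung fibroblasts. Of 39 collagen chains tested, 21 were higher in cardiac and 4 in lung (8 without the cardiac Ad-GFP library), with a median log2 fold change of 1.29. Col1a1, the main chain of fibrillar collagen, was at 1082 and 1620 CPM in lung and 8643 and 6054 CPM in cardiac cells (2.44, SE 0.27, adjusted p = 6.6e-04). The basement membrane chain Col4a1 was at 631 and 859 against 7776 and 4957 CPM (3.09, SE 0.28, adjusted p = 2.4e-04). The 2 cardiac libraries differed from each other for both collagens, yet each was above both lung libraries. Col15a1, a collagen that links basement membranes to the fibrils beside them, had 1 and 0 reads in lung and 406 and 195 CPM in cardiac cells (ratio 16621, exact 95% interval 2983 to 656530). Col14a1, a fibril-associated collagen, was at 0.275 and 0.429 against 34.2 and 19.1 CPM (6.21, SE 0.37, adjusted p = 4.6e-05), and Col11a1 at 29.9 and 26.2 against 414 and 208 CPM (3.41, SE 0.25, adjusted p = 1.0e-04).

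Among 102 matrix glycoproteins and proteoglycans, 49 were higher in cardiac and 18 in lung, with a median of 1.13. Postn, a matricellular protein of activated cardiac fibroblasts and valves, was at 4.60 and 5.07 CPM in lung and 981 and 639 CPM in cardiac cells (7.35, SE 0.27, adjusted p = 1.2e-05). Eln, the elastin gene, had 0 and 1 read in lung and 30.9 and 20.2 CPM in cardiac cells (ratio 1406, exact 95% interval 252 to 55587), and Mfap4, a microfibril-associated protein, 2 and 2 reads against 19.6 and 19.3 CPM. Elastin was thus close to unread in the lung libraries. The small leucine-rich proteoglycans that mark fibroblasts went the other way. Dcn was at 684 and 428 CPM in lung and 88.6 and 51.1 CPM in cardiac cells (-3.0, SE 0.24, adjusted p = 1.6e-04), and Lum at 21.5 and 7.49 against 2.89 and 1.11 CPM (-2.81, SE 0.38, adjusted p = 0.00144). Hyaluronan genes were split: Has2, its synthase, was lung-high at 118 and 72.5 against 11 and 5.89 CPM (-3.51, SE 0.22, adjusted p = 5.9e-05), and Cemip, which breaks it down, was cardiac-high at 11.5 and 18.9 against 697 and 362 CPM (5.15, SE 0.44, adjusted p = 2.0e-04).

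Growth factors were the one secreted list with more members higher in lung, 19 of 57 against 13 higher in cardiac, and a median of -0.07. Without the lung Ad-Cre library the lung count was 12. Fgf10, the ligand that drives branching of the airway epithelium, was at 54.2 and 40.3 CPM in lung and 0.338 and 0.655 CPM in cardiac cells (-6.57, SE 0.34, adjusted p = 2.8e-05). Fgf7 and Hgf, other ligands for epithelial receptors that were picked after their values were seen, were at 285 and 194 against 17.2 and 16.2 CPM, and at 74.8 and 44.6 against 8.48 and 4.52 CPM. All 3 epithelial ligands were higher in both lung libraries than in either cardiac library, as were 35.2% of all tested genes. Tail tip fibroblasts had Fgf10 and Fgf7 at levels near those of lung, 52.3 and 258 CPM in the control. On the cardiac side Gas6, the ligand of the TAM receptors, was at 0.378 and 0.156 against 33.0 and 44.2 CPM (7.10, SE 0.32, adjusted p = 1.8e-05) and Tgfa, a ligand of the EGF receptor, at 0.172 and 0.741 against 7.35 and 14.6 CPM (4.67, SE 0.48, adjusted p = 4.6e-04).

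Ligands and antagonists of the TGF-beta, BMP and Wnt pathways leaned to the cardiac side with exceptions. Of 33 TGF-beta and BMP genes, 16 were higher in cardiac and 2 in lung, with a median of 1.20, or 0.77 with genes at 0 reads set to their bound. Bmp6 was at 0.240 and 0.507 CPM in lung and 12.4 and 5.37 CPM in cardiac cells (4.54, SE 0.62, adjusted p = 0.00158). Grem1, a secreted BMP antagonist, was among the 2 on the lung side, at 1897 and 1640 CPM against 15.8 and 6.58 CPM (-7.36, SE 0.40, adjusted p = 3.2e-05). The BMP ligand Gdf6 and the antagonist Grem1 were thus high in opposite origins. Of 24 Wnt genes, 12 were higher in cardiac and 5 in lung, with a median of 3.11. The antagonist Frzb was at 0.309 and 0.273 CPM in lung and 74.9 and 37.4 CPM in cardiac cells (7.54, SE 0.39, adjusted p = 2.9e-05), and the ligand Wnt9a at 0.378 and 0.624 against 5.32 and 18.7 CPM (4.45, SE 0.55, adjusted p = 0.00103). Dkk3, a relative of the Wnt antagonists, was lung-high at 124 and 106 against 8.05 and 5.93 CPM (-4.05, SE 0.20, adjusted p = 2.5e-05). Sema3a, a secreted repellent of axons and endothelium, was also lung-high, at 381 and 217 against 18.7 and 15.6 CPM (-4.09, SE 0.24, adjusted p = 4.1e-05), while Sema3d was cardiac-high at 2.61 and 2.38 against 62.2 and 40.5 CPM (4.35, SE 0.31, adjusted p = 9.3e-05).

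Chemokines and cytokines were called in both directions, 19 of 65 higher in cardiac and 13 in lung. Tnfsf18, the ligand of the costimulatory receptor GITR, was at 0.172 and 0.117 CPM in lung and 46.4 and 14.6 CPM in cardiac cells (7.64, SE 0.38, adjusted p = 2.3e-05). Cxcl14 had 1 and 0 reads against 9.22 and 9.04 CPM. Cxcl10, induced by interferon, was lung-high at 14.8 and 22.9 against 1.51 and 0.524 CPM (-4.24, SE 0.45, adjusted p = 5.3e-04). Of 39 complement and coagulation genes 13 were higher in cardiac and 6 in lung, led by the 3 chains of C1q, products of macrophages: C1qb had 0 reads in lung and 29.6 and 13.9 CPM in cardiac cells, beside 43.7 CPM in the tail tip control. The 3 C1q chains are themselves on the macrophage marker list, so that list is no separate measure of them. The part of macrophage RNA in these genes was not tested.

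Proteases numbered 102, with 48 higher in cardiac and 16 in lung (9 without the lung Ad-GFP library). Pcsk6, a convertase that activates TGF-beta family ligands, had 1 and 2 reads in lung and 30.3 and 15.6 CPM in cardiac cells (ratio 423, exact 95% interval 144 to 2051). Mmp12 and Ctss, proteases of macrophages, were at 30.2 and 35.8 CPM and 54.5 and 37.0 CPM in cardiac cells, under 0.3 CPM in lung cells, and 176 and 431 CPM in the tail tip control. Of 52 protease inhibitors, 24 were higher in cardiac and 4 in lung (10 without the cardiac Ad-GFP library). Serpina3n, a serine protease inhibitor, was at 0.172 and 0.117 CPM in lung and 35.0 and 25.1 CPM in cardiac cells (7.65, SE 0.29, adjusted p = 1.2e-05). Igfbp2 and Igfbp5, binding proteins of insulin-like growth factors, ran in opposite directions: Igfbp2 was at 0.103 and 0.117 in lung against 31.4 and 16.4 CPM in cardiac cells, and Igfbp5 at 71.4 and 65 against 5.56 and 5.21 CPM (-3.66, SE 0.17, adjusted p = 2.0e-05).

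Metabolic lists differed in direction by pathway. Cholesterol synthesis was higher in lung for 16 of 25 tested genes and higher in cardiac for 1, with a median log2 fold change of -0.79. Srebf2, which encodes the transcription factor of the pathway, was at 246 and 279 CPM in lung and 136 and 89.8 CPM in cardiac cells (-1.24, SE 0.21, adjusted p = 0.00375), and Acat2, an acetyl-CoA acetyltransferase at its entry, at 64.7 and 59.7 against 16.6 and 22.9 CPM (-1.67, SE 0.19, adjusted p = 7.1e-04). Fdft1, squalene synthase, was at 60.6 and 52.8 against 37.3 and 20.2 CPM (-1.01, SE 0.25, adjusted p = 0.0175). In these 3 genes all lung values were above all cardiac values, by less than 4-fold on the mean. The same lack of overlap was found in 35.2% of all tested genes. The 1 gene higher in cardiac was Dhcr7, and it was not called without either lung library.

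Fatty acid uptake, storage and oxidation went the other way, with 20 of 43 genes higher in cardiac and 6 in lung (3 without the lung Ad-Cre library). Cd36, the fatty acid transporter, was at 0.172 and 0.117 CPM in lung and 48.1 and 40.6 CPM in cardiac cells (8.23, SE 0.26, adjusted p = 7.7e-06). Mgll, which completes the breakdown of triglyceride, was at 0.0687 and 0.273 against 78.4 and 42.6 CPM (8.45, SE 0.51, adjusted p = 4.6e-05), and Lpl, lipoprotein lipase, at 6.28 and 7.45 against 100 and 90.0 CPM (3.79, SE 0.21, adjusted p = 3.3e-05). These 3 genes act in uptake and release of fatty acids rather than in their oxidation, and macrophages express Cd36 and Lpl too.

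Retinoid metabolism held some of the largest metabolic differences. All 3 retinaldehyde dehydrogenases that make retinoic acid were cardiac-high. Aldh1a2, the enzyme of the epicardium, had 0 and 1 read in lung and 53.5 and 39.1 CPM in cardiac cells (ratio 2547, exact 95% interval 457 to 100654), Aldh1a1 was at 0.172 and 0.312 against 79.1 and 53.5 CPM (8.10, SE 0.43, adjusted p = 3.0e-05), and Aldh1a3 at 0.481 and 1.33 against 57.9 and 46.4 CPM (5.89, SE 0.39, adjusted p = 6.7e-05). Crabp1, which binds retinoic acid in the cytoplasm, was lung-high at 304 and 271 against 7.22 and 9.69 CPM (-5.10, SE 0.21, adjusted p = 1.4e-05). Over the whole list of retinoid and aldehyde genes 18 of 51 were higher in cardiac and 8 in lung (13 without the cardiac Ad-GFP library).

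Glycan synthesis, which builds the sugar chains of the matrix and cell surface, was higher in cardiac for 53 of 117 genes and higher in lung for 16. The lung count was 9 without lung Ad-GFP and 8 without lung Ad-Cre. Sulf1 and Sulf2, which trim sulfate from heparan sulfate, were at 22.7 and 22.5 against 332 and 330 CPM (3.87, SE 0.16, adjusted p = 1.3e-05) and at 0.309 and 0.975 against 113 and 166 CPM (7.79, SE 0.36, adjusted p = 1.8e-05). Gpx3, a secreted glutathione peroxidase, was at 0.481 and 0.234 against 58.3 and 113 CPM (7.81, SE 0.45, adjusted p = 4.2e-05), in a list of glutathione and redox enzymes with 22 of 63 higher in cardiac (14 without lung Ad-Cre) and 8 in lung (14 without cardiac Ad-GFP). Ckb, brain creatine kinase, was cardiac-high at 3.57 and 4.13 against 202 and 162 CPM (5.55, SE 0.21, adjusted p = 1.2e-05), as was Ass1, argininosuccinate synthase, at 13.1 and 12 against 188 and 210 CPM (3.98, SE 0.17, adjusted p = 1.5e-05). Upp1, uridine phosphorylase, was lung-high at 56.1 and 41.8 against 2.31 and 2.65 CPM (-4.30, SE 0.26, adjusted p = 4.5e-05), and so was Eno3, a muscle enolase, at 123 and 157 against 16.8 and 24.4 CPM (-2.78, SE 0.18, adjusted p = 6.4e-05).

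Mitochondrial genes were called in both directions, and most were not called. The share called was 28.8% for nuclear respiratory chain subunits, 42.9% for the citrate cycle and 30.8% for mitochondrially encoded proteins, beside 38.4% of all tested genes. For the nuclear subunits 22.5% were higher in lung and 6.25% in cardiac, beside 17.6% and 20.8% of all tested genes. Of 80 nuclear genes for respiratory chain subunits, 18 were higher in lung and 5 in cardiac, with a median of -0.30 (-0.49 with Ad-GFP and -0.06 with Ad-Cre), and the lung count was 42 without the cardiac Ad-Cre library while the cardiac count ranged from 1 without either lung library to 12 without cardiac Ad-GFP. Ndufa12, a subunit of complex I, was at 84.9 and 79.2 CPM in lung and 27.2 and 27.7 CPM in cardiac cells (-1.58, SE 0.15, adjusted p = 3.5e-04). The citrate cycle list had 8 of 28 higher in lung and 4 in cardiac (1 without lung Ad-Cre, 2 without lung Ad-GFP), with Suclg2 at 89.7 and 93.1 against 38.1 and 34.1 CPM. Reads on the mitochondrial genome made up 4.72% and 4.40% of the lung and 1.90% and 2.65% of the cardiac counts. Of the 13 proteins encoded there, 3 were higher in lung (7 without lung Ad-Cre or cardiac Ad-Cre) and 1 in cardiac (2 without either cardiac library), with mt-Atp6, a subunit of the ATP synthase, at 32.8 and 22.2 against 3.87 and 7.76 CPM and mt-Nd3, of complex I, at 4.60 and 2.81 against 17.0 and 21.4 CPM. The ribosomal RNA mt-Rnr2 was at 17590 and 17735 CPM in lung and 1796 and 2413 CPM in cardiac cells (-3.09, SE 0.19, adjusted p = 5.0e-05).

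The regulatory class was split between a lung side of Hox, homeodomain and cell division genes and a cardiac side of p53 targets and imprinted genes. Of 29 Hox factors tested, 22 were higher in lung and 0 in cardiac, and the median log2 fold change was -6.08, or -5.54 with genes at 0 reads set to their bound. Without cardiac Ad-GFP 4 Hox genes were higher in cardiac, and without cardiac Ad-Cre 1. Hoxb7 had 498 and 481 reads in lung and 0 in cardiac cells (at least 376-fold higher in lung), Hoxc6 had 445 and 547 against 0 (at least 381-fold), and Hoxb9 was at 71.6 and 82.0 against 0.123 and 0.229 CPM (-8.75, SE 0.28, adjusted p = 7.7e-06). The cardiac libraries were close to silent for these 3 trunk-level Hox genes. Among 77 other homeodomain factors 26 were higher in lung and 15 in cardiac (6 without lung Ad-GFP, 23 without cardiac Ad-Cre). Pax3, a factor of neural crest and somites, was at 25.5 and 26.6 CPM in lung against 0.461 and 1.08 CPM (-5.12, SE 0.37, adjusted p = 9.6e-05), Irx5 at 18.3 and 20 against 0.615 and 1.31 CPM (-4.33, SE 0.45, adjusted p = 4.7e-04), and Lhx8 had 447 and 320 reads against 3 and 0.

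T-box factors were called 4 against 4 of 10. Tbx20, a factor of heart development, was at 6.11 and 6.20 CPM in lung and 661 and 406 CPM in cardiac cells (6.40, SE 0.26, adjusted p = 1.3e-05), and Tbx18, of the epicardium, at 14 and 12 against 68.9 and 75.1 CPM (2.47, SE 0.18, adjusted p = 9.4e-05). Tbx15, of limb and body wall mesenchyme, was lung-high at 53.3 and 57.6 against 1.48 and 0.753 CPM (-5.64, SE 0.30, adjusted p = 3.0e-05). Tbx5, of the heart and of lung mesenchyme, was lung-high too, at 8.03 and 10.1 against 2.27 and 1.18 CPM (-2.44, SE 0.46, adjusted p = 0.00888), so T-box genes with a role in the heart were found on both sides. Tcf21 had 1148 and 338 reads in cardiac and 0 in lung cells (at least 430-fold higher), and Hand2 was at 0.172 and 0.312 against 26.3 and 12.1 CPM (6.23, SE 0.53, adjusted p = 4.3e-04). Gata4, the gene targeted in the Ad-Cre arm, was at 14.7 and 19.2 CPM in lung and 147 and 149 CPM in cardiac cells (3.14, SE 0.18, adjusted p = 3.6e-05), as high in the library labelled Ad-Cre as in its control. No label gives the deleted exons, and the count runs over the whole gene, so this is no check of the deletion. Over the 8 GATA factors and cofactors 4 were higher in cardiac (2 without either lung library) and 1 in lung (0 without lung Ad-Cre, 2 without cardiac Ad-GFP). Forkhead factors differed by member: Foxc2 had 1 and 0 reads in lung and 28.2 and 19.5 CPM in cardiac cells (ratio 1315, exact 95% interval 236 to 51954), while Foxf2 was at 42.6 and 35.6 against 1.97 and 1.83 CPM.

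**Figure D4:**
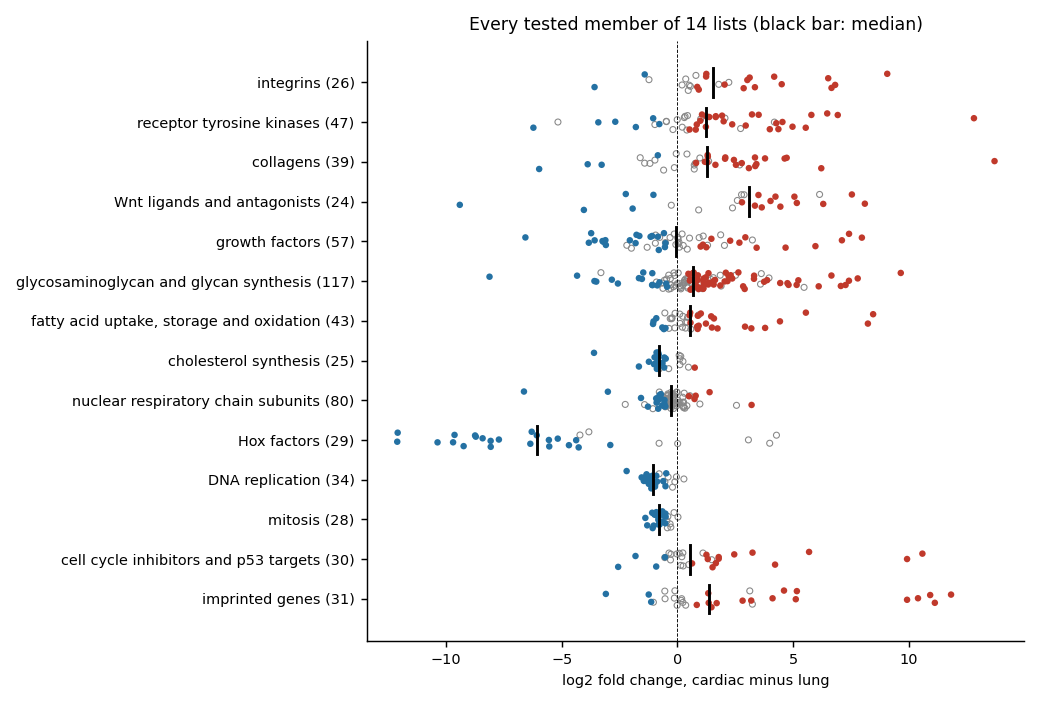
Every tested member of 14 lists by its log2 fold change (cardiac minus lung), with called genes in red (higher in cardiac) or blue (higher in lung), others open, and a black bar at the list's median. Genes at 0 reads in an origin are drawn at their fitted value, which depends on the prior count. Hox factors sit furthest to the left (median -6.08), DNA replication and mitosis form narrow groups left of 0 (medians -1.07 and -0.79), and imprinted genes include a cluster beyond 9 on the right.

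Cell division genes were higher in lung fibroblasts as 2 narrow groups. Of 34 DNA replication genes tested, 27 were higher in lung and 0 in cardiac, with a median log2 fold change of -1.07, and of 28 mitosis genes 21 and 0, with a median of -0.79. Mcm7, a subunit of the replicative helicase, was at 340 and 357 CPM in lung and 144 and 111 CPM in cardiac cells (-1.45, SE 0.17, adjusted p = 7.2e-04). Mki67, the proliferation antigen, was at 1236 and 1400 against 459 and 549 CPM (-1.39, SE 0.16, adjusted p = 6.8e-04), and Top2a at 815 and 870 against 395 and 460 CPM (-0.98, SE 0.15, adjusted p = 0.00238). Prim1, the primase subunit, stood furthest out at 152 and 169 against 37.7 and 31.9 CPM (-2.20, SE 0.18, adjusted p = 1.8e-04). In these 4 genes both lung libraries were above both cardiac libraries, as in 35.2% of all tested genes. The tail tip libraries were below the cardiac ones, with Mki67 at 105 CPM in the control.

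The promoters of these lists are shown because their members moved together. Replication genes are known to carry sites for E2F, and mitosis genes CCAAT boxes and the cell cycle homology region (CHR). In the RefSeq windows of 250 bases before the start site (build GRCm38.p6), an E2F motif (TTTCCCGC, TTTGGCGC, TTTCGCGC or TTTGCCGC on either strand) was found in 7 of 27 replication promoters with a window (25.9%), against 1.91% of all 27025 promoters and 3.20% of the 11886 promoters of tested genes. CHR (TTTGAA, either strand) was found in 8 of 23 mitosis promoters (34.8%, against 16.3% of all and 10.9% of tested genes) and CCAAT (either strand) in 19 of 23 (82.6%, against 34.5% and 35.9%). The motifs do not overlap each other in the windows printed, and a match is a description of letters, not a site that was measured. Shown are called members with at least 5 CPM that hold an E2F motif, or both CHR and CCAAT. Motifs are in capitals, and sequences run 5′ to 3′ on the gene's strand. Members were ranked by fold change, but the choice did not cover every chromosome. A member not shown may therefore hold the motifs at a larger fold change.
Mcm7 (chr5:138171884-138172133, minus strand): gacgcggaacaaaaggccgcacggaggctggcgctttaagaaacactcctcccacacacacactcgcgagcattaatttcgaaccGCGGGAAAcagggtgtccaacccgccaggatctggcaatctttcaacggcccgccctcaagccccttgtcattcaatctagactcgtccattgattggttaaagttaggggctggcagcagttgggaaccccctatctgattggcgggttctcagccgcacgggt
Pola1 (chrX:93632156-93632405, minus strand): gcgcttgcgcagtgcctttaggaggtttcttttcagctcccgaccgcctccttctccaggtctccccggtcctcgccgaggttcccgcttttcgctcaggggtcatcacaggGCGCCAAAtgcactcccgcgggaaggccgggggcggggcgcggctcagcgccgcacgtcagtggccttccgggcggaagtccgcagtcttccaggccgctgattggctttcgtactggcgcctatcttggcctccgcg
Mki67 (chr7:135716380-135716629, minus strand): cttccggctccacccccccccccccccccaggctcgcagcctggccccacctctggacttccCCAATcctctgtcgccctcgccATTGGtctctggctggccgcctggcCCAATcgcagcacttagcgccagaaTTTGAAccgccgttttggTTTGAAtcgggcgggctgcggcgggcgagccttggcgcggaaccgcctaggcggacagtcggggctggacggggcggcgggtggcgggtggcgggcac
Top2a (chr11:99024190-99024439, minus strand): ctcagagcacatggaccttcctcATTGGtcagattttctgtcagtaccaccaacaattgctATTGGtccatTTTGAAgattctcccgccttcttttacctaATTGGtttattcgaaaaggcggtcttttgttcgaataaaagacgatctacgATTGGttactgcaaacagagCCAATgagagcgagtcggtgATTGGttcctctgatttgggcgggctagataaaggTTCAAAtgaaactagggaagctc
In Mcm7 and Pola1, a DNA polymerase subunit at 180 and 174 CPM in lung and 72.0 and 70.0 CPM in cardiac cells, the E2F letters lie 165 and 138 bases before the start. Top2a holds 8 matches and Mki67 holds 5.

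Inhibitors of the cell cycle and targets of p53 moved the other way, with 13 of 30 higher in cardiac and 4 in lung. Cdkn1a, the p53-induced inhibitor of cyclin-dependent kinases, was at 56.8 and 55.4 CPM in lung and 463 and 606 CPM in cardiac cells (3.24, SE 0.17, adjusted p = 3.2e-05). Ccng1, a cyclin induced by p53, was at 49.6 and 44.6 against 639 and 1194 CPM (4.22, SE 0.28, adjusted p = 6.5e-05), and Eda2r, a p53-induced receptor of the TNF family, at 2.30 and 2.11 against 90.6 and 143 CPM (5.69, SE 0.25, adjusted p = 1.5e-05). Each p53 target named here was several times higher in both cardiac libraries. Cdkn2a, which encodes p16 and p19ARF, and Trp53 itself were on the lung side, at 59.7 and 61.5 against 11.3 and 9.30 CPM and at 238 and 273 against 159 and 114 CPM (-0.92, SE 0.19, adjusted p = 0.00839); the pair was picked after its values were seen. Perp, both a p53 target and a desmosome gene, had 0 reads in lung, 19 in cardiac Ad-GFP and 510 in cardiac Ad-Cre cells.

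Imprinted genes were higher in cardiac for 16 of 31 tested members and higher in lung for 3 (5 without the cardiac Ad-GFP library), with a median of 1.35. Grb10, an adaptor that restrains insulin signalling, had 1 and 2 reads in lung and 225 and 201 CPM in cardiac cells (ratio 3894, exact 95% interval 1332 to 18882). The noncoding RNAs of the Dlk1-Meg3 domain were near absent from lung: Meg3 was at 0.343 and 0 against 294 and 200 CPM (10.39, SE 0.52, adjusted p = 2.5e-05), Rian at 0.240 and 0.0780 against 312 and 340 CPM (10.92, SE 0.32, adjusted p = 7.0e-06), and Mirg had 0 reads against 317 and 259 (at least 167-fold higher). Their tail tip levels were like the cardiac ones or above, with Meg3 at 854 CPM in the control. Xist, the RNA of the inactive X chromosome, was at 1.06 and 0.429 CPM in lung and 693 and 863 CPM in cardiac cells, and the Y-linked Ddx3y had 1 and 1 read in lung and stood at 25.7 and 18.4 CPM in cardiac cells. The lung libraries therefore held almost no RNA of either kind, while the cardiac libraries held both.

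Differences in the share of reads were carried by matrix genes on the cardiac side and on the lung side by mitochondrial RNA, housekeeping genes and the secreted products Spp1 and Grem1. Among the called genes with the largest differences in mean CPM toward cardiac cells were Col1a1, Fn1, Col4a1, Thbs1 and Fbln2, with differences from 5997 CPM down to 3602 CPM. Fn1, fibronectin, was at 3640 and 3586 CPM in lung and 9863 and 9126 CPM in cardiac cells, and Thbs1, thrombospondin 1, at 1378 and 1240 against 7340 and 6081 CPM. On the lung side these were mt-Rnr2, Spp1, Eef2, mt-Nd2, Hsp90ab1 and Grem1. Spp1, osteopontin, was at 4677 and 2580 CPM in lung and 421 and 431 CPM in cardiac cells (-3.04, SE 0.25, adjusted p = 1.8e-04). Eef2, a translation elongation factor, and Hsp90ab1, a chaperone, differed by under 2-fold (-0.83, SE 0.20, adjusted p = 0.0165, and -0.80, SE 0.19, adjusted p = 0.0149).

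Among called genes with at least 10 CPM on average in the higher origin, the 5 described here had the largest gaps between the viruses. Over all called genes, 1230 had a gap of 1 or more on the log2 scale. Below that CPM level, genes such as Aqp3 (gap 5.34), Rgs5 (4.76) and Perp (4.69) had larger gaps than some of the 5. Ptges, a prostaglandin synthase, was at 245 and 213 CPM in lung and at 3.35 CPM in cardiac Ad-GFP and 54.7 CPM in cardiac Ad-Cre cells, log2 ratios of -6.17 and -1.96. Megf6 had 1 and 0 reads in lung and 29 and 742 in cardiac cells. Irx1 was at 16.7 and 21.5 CPM in lung and 3.32 and 0.164 CPM in cardiac cells (log2 ratios -2.31 and -6.55), and Spock3 had 506 and 262 reads against 0 and 13. In these 4 genes the gap came from the cardiac pair. Pkp1, a desmosomal plaque protein, had 1 and 17 reads in lung and 108 and 79.3 CPM in cardiac cells, so there the low lung counts set the log2 ratios of 10.08 and 6.77. With 1 library a group, these gaps between viruses were not tested.

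The difference between the origins also varied by chromosome. Over 9571 tested genes with at least 10 CPM in the higher origin, on 20 chromosomes, the median log2 fold change per chromosome ran from -0.59 to 0.58, around -0.06 for all of these genes. On chromosome 12 it was 0.58 over 307 genes, 160 of them called higher in cardiac and 14 higher in lung, and on chromosome 16 it was 0.55 over 299 genes, 153 against 13. On chromosome 18 it was -0.59 over 261 genes, 29 higher in cardiac against 131 higher in lung, on chromosome 10 it was -0.41 over 479 genes, 65 higher in cardiac against 198 higher in lung, and on chromosome 17 it was -0.39 over 460 genes. The shifts were alike with both viruses, 0.58 and 0.62 on chromosome 12 and -0.63 and -0.55 on chromosome 18. Measured against tail tip fibroblasts, the medians of the lung libraries ran from -0.53 to 0.82 and those of the cardiac libraries from 0.04 to 0.17. List medians were therefore taken again with each chromosome's median subtracted. Hox factors were then at -5.80, DNA replication at -1.07, mitosis at -0.64, cholesterol synthesis at -0.52, collagens at 1.37, integrins at 1.37 and imprinted genes at 1.56. The median of cadherins and protocadherins went from 0.77 to 1.34. Meg3, Rian and Mirg lie on chromosome 12 and Grb10 on chromosome 11. Chromosome copy number was not measured in these files, and its part in the shifts was not tested.

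**Figure D5:**
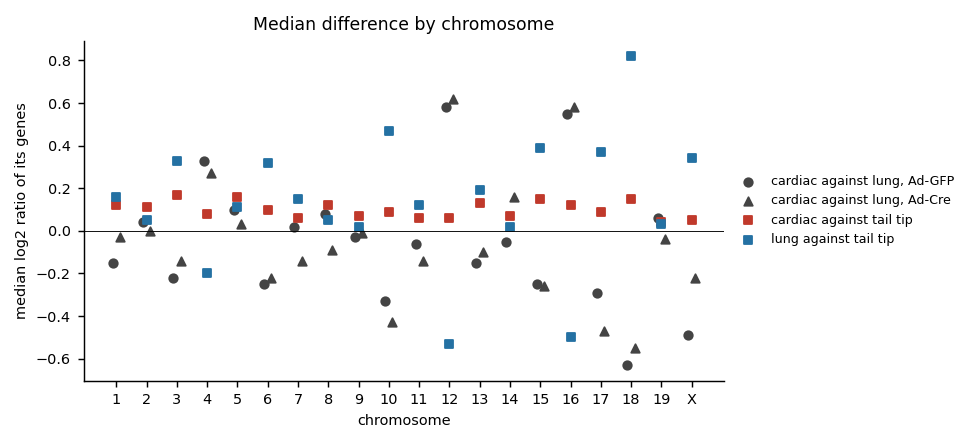
Median log2 ratio of the genes of each chromosome, for cardiac against lung with Ad-GFP (circles) and Ad-Cre (triangles), and for cardiac (red squares) and lung (blue squares) against tail tip fibroblasts. The red squares stay between 0.04 and 0.17, while the blue squares run from -0.53 on chromosome 12 to 0.82 on chromosome 18.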

How the data were processed

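The deposited table holds whole-number counts of reads per Ensembl gene, not normalized. Per the submitters' processing notes, STAR 2.0.7 and the mouse build mm39 were used; the counting tool is not given in the sources used here. RNA was polyadenylated, per the labels' protocols. The 6 libraries (1 per origin and virus) were fitted together with an additive effect of origin and virus in edgeR 4.0.16 (R 4.3.3): filterByExpr with a minimum count of 10, TMM scaling, robust quasi-likelihood F-test, Benjamini-Hochberg adjustment, threshold 0.05. The tail tip libraries entered the filter, the scaling and the estimate of spread. Nothing states that libraries came from separate animals or cultures. The p-values measure what additive effects of origin and virus leave between these libraries. That remainder may be technical spread or a virus effect that differs between origins, and these cannot be told apart. In limma-voom the tail tip libraries had weights of 2.45 and 2.54 and the cardiac libraries 0.414 and 0.375. The edgeR fit used no such weights. Log2 ratios per virus used a prior count of 2. Exact 95% intervals and the floor of 3 reads cover counting error only. On simulated counts, 43 of 100 genes changed by a log2 of 1 and 71 of 100 changed by a log2 of 2 were called, with 4 of 17943 unchanged genes. The simulation had no virus effect, no difference of tail tip cells and a far smaller share of changed genes than the 38.4% called here. These rates therefore need not hold for the data.

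Members and gene lists were chosen with earlier results of these data known, and 7 lists were trimmed by name pattern after first results. Genes were named by rule: the 10 largest called differences in each direction over all genes, 6 per class and direction, up to 4 per list, 6 by share of reads in each direction, 5 by difference between viruses, and label markers; exceptions are stated in the text, except that Top2a and Pola1 were named for their promoters and Dhcr7 as the single member of its count. Chromosomes are those of the GENCODE vM21 annotation and promoters those of RefSeq GRCm38.p6, used for names, chromosomes and sequences only. Tools for tables and plots were Python 3.11.15, pandas 2.3.3, scipy 1.17.1 and matplotlib 3.10.9. Alternatives used DESeq2 1.42.0 and limma 3.58.1.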

Additional observations from a re-analysis of the deposited data

How the results depend on the processing

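The counts of genes higher in cardiac and higher in lung were within 1.5 times the reported 3774 and 3193 under every alternative except 1: without the cardiac Ad-GFP library 4978 genes were higher in lung, and the cause was not tested. Leaving out each library in turn gave 2731 to 5087 genes higher in cardiac and 2218 to 4978 higher in lung. The surface class ranged from 292 to 450 higher in cardiac and 99 to 190 higher in lung, the secreted class from 207 to 289 and 81 to 138, the metabolic class from 163 to 266 and 116 to 204, and the regulatory class from 118 to 214 and 166 to 266. DESeq2 called 3840 and 3270, limma-voom 3546 and 2834, and a fit of the 4 cardiac and lung libraries alone 3201 and 2517. Without the filter on low counts the numbers were 3978 and 3836. S100b, not called in the reported fit (log2 fold change 0.21), reversed to -5.06 without cardiac Ad-GFP (edgeR adjusted p = 4.22e-02) and was 1.24 without cardiac Ad-Cre. Subtracting each chromosome's median, chosen after seeing the data, changed the sign of the medians of growth factors, glycolysis, amino acid metabolism, other homeodomain factors, forkhead factors and long noncoding RNAs. No paired analysis was possible because each group holds 1 library and the virus is already a term of the model. With 1 library a group, spread between cultures of the same origin and virus cannot be seen.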

Other observations

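Smooth muscle and pericyte markers were not described above. Of 12 tested, 8 were higher in cardiac fibroblasts and 3 in lung (1 without the lung Ad-Cre library, 2 without lung Ad-GFP), and the list summed to 922 and 980 CPM in the lung and 3467 and 2737 CPM in the cardiac libraries, with 1462 and 1512 CPM in the tail tip libraries. Acta2, smooth muscle actin and a marker of activated fibroblasts, was at 632 and 612 CPM in lung and 2797 and 2118 CPM in cardiac cells. Cardiomyocyte markers stayed low, at 34.5 and 42.8 CPM in lung and 82.2 and 61.4 CPM in cardiac cells over the whole list.

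Among central metabolic lists with no common direction, glycolysis had 11 of 35 genes higher in cardiac and 6 in lung (11 without cardiac Ad-Cre), and nucleotide metabolism had 10 of 51 higher in cardiac and 17 in lung. Among regulators, basic helix-loop-helix factors had 20 of 63 higher in cardiac and 10 in lung, and zinc finger developmental factors had 16 of 59 in each direction. Zic1, a neural and mesenchymal zinc finger factor, was at 17.4 and 19.7 CPM in lung and 0.246 and 0.720 CPM in cardiac cells (-5.28 on the log2 scale).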
